A study of Sus scrofa with 24 samples.

Results

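Genes of steroid hormone reception were followed in pig liver after treatment with anabolic steroids. The set held 8 listed genes, chosen by symbol: the estrogen receptor ESR1, the glucocorticoid receptor NR3C1, the mineralocorticoid receptor NR3C2, the receptor co-chaperones FKBP4 and FKBP5, the steroid 5-alpha-reductases SRD5A1 and SRD5A2, and the corticosteroid carrier SERPINA6. Of these, 7 were among the 13463 genes of the count and TPM tables. SRD5A1 was not analysed here. SRD5A2 was too low to be tested, which left 6 tested genes.

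The livers came from 24 crossbred pigs (Large White, Landrace and Duroc), with 1 RNAseq library per pig, and 8 pigs in each of 3 groups. The Sustanon group received a mixture of testosterone esters at 4 mg/kg (preparation of 250 mg/ml). The Myodin group received an ester of nandrolone, which lacks a methyl group of testosterone, at 5 mg/kg (preparation of 25 mg/ml), and the third group was untreated. Treated pigs were injected 5 times at intervals of 4 days from day 94 of the trial. The same pigs had been given a single injection of their preparation in an earlier phase, and the labels give no ages. Each group held sows, castrated boars and uncastrated boars: 3, 3 and 2 with Sustanon, 3, 2 and 3 with Myodin, and 3, 3 and 2 untreated. Sows and castrated boars, as labelled, are called pigs without testes below (6, 5 and 6 pigs). By the labels, only the uncastrated boars carried a testicular source of testosterone of their own. Each group had pens of its own and the untreated pigs a room apart, so that housing and treatment cannot be told apart in any comparison of treatments, Sustanon against Myodin included.

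Steroid receptors wait for their hormone in a complex with the heat shock protein HSP90 and its partners. FKBP4 and FKBP5 compete for the same place in that complex: FKBP4 favours hormone binding and transport to the nucleus, whereas FKBP5 lowers the affinity of the glucocorticoid receptor for its hormone, and FKBP5 is itself a well known transcriptional target of glucocorticoids, androgens and progestins. The liver also makes SERPINA6, which carries cortisol in blood, and ESR1 is the main estrogen receptor of hepatocytes.

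The libraries held 9267780 to 14017276 counts (median 10260005), and the 10 most abundant genes took at most 32.5% of them. Hepatocyte markers were abundant in every library: albumin counts ran from 608427 to 1932536. Of the adrenal genes, MC2R was at 0 in 23 of 24 libraries and CYP11A1 in 14, whereas CYP21A2 was at 0 in 3 and reached 18 counts, and skeletal muscle CKM did not exceed 24 counts. The Y-linked genes EIF1AY and KDM5D went against the labelled sex in 3 untreated libraries. The library labelled untreated castrated boar 15 held 1 EIF1AY count and no KDM5D count, whereas the libraries labelled untreated sows 16 and 18 held 476 and 434 EIF1AY counts. For the libraries labelled sows 16 and 18 the status without testes is thus in doubt as well. Labels were kept, and for the 6 tested genes the values without these 3 libraries stand beside the results that rest on untreated pigs without testes. One further library, labelled Sustanon sow 6, carries in its column name the code of Sustanon castrated boars, although its Y-linked counts of 0 go with the label. Because the tissue was sampled in bulk, fewer cells of a type and less RNA per cell cannot be told apart.

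On the length-corrected TPM scale the genes spanned more than 2 orders of magnitude. FKBP4 was the most abundant, with 283 ± 62.8 TPM (mean ± SD, n = 24). SERPINA6 followed with 169 ± 58.7 TPM and FKBP5 with 106 ± 57.7 TPM, and the ranges of these 3 genes over pigs overlapped. NR3C1 came next at 14.6 ± 2.01 TPM, and only the lowest FKBP5 value, 13.3 TPM in Myodin sow 11, reached into its range. ESR1 was at 2.94 ± 1.06 TPM and NR3C2 at 0.861 ± 0.266 TPM, and their ranges came close without overlap, with a highest NR3C2 value of 1.35 TPM and a lowest ESR1 value of 1.36 TPM. NR3C1 was the steadiest across pigs, from 10.7 to 18.7 TPM, whereas FKBP5 covered the widest relative range, from 13.3 to 208 TPM.

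**Figure D1:**
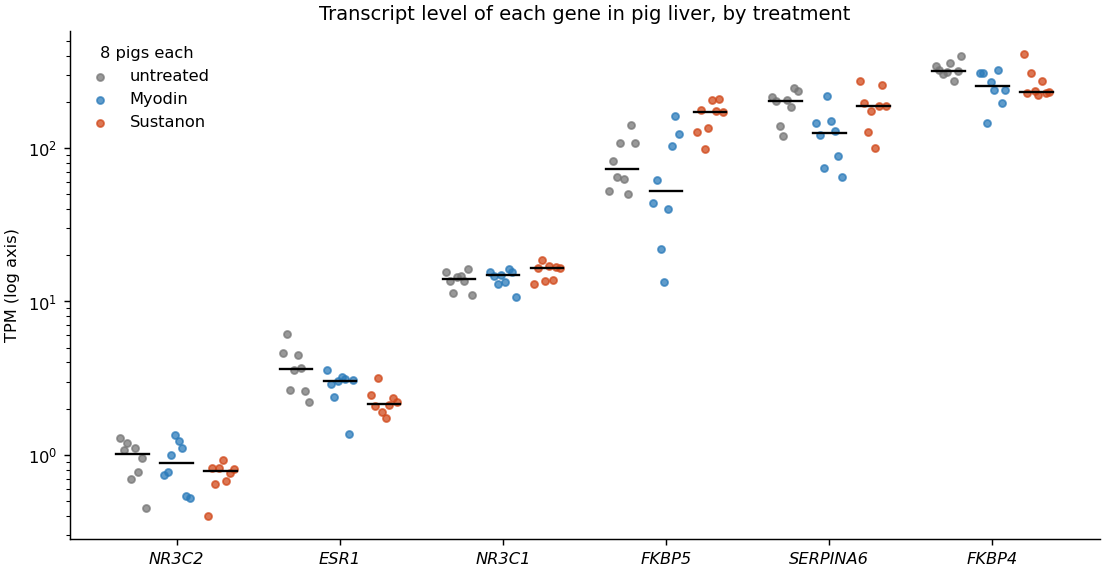
TPM on a log axis for the 6 tested genes, where each point is a pig, in 3 treatment groups of 8, and bars are group medians. FKBP5 spread from 13.3 to 208 TPM, NR3C1 only from 10.7 to 18.7 TPM, and NR3C2 lay lowest.

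SRD5A2, a reductase that converts testosterone to dihydrotestosterone, was at the edge of detection. Its gene lies on chr3:107840200-107918351 (Sscrofa11.1). It had 0 counts in all 7 uncastrated boars, where a count of 0 allows for up to 3 counts a library (counting error only). In pigs without testes the highest counts were 15 in Sustanon sow 5, 10 in Myodin castrated boar 9 and 7 in Sustanon castrated boar 2, and no other library held more than 3. No fold change is given for it at this depth.

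FKBP5, of the 6 tested genes, had the largest fold difference between treatments. It lies on chr7:31441764-31550704 (Sscrofa11.1, RefSeq), where 2 uncharacterised RefSeq loci, LOC110261510 and LOC110261509, overlap it. Levels from here on are CPM, counts relative to the library total after TMM scaling, which serve to compare pigs and not genes. In sows, FKBP5 stood at 366, 571 and 466 CPM with Sustanon, at 61.0, 32.9 and 113 CPM with Myodin, and at 308, 156 and 123 CPM without treatment. Every Sustanon sow was thus above every library labelled untreated sow, and every Myodin sow below. Of these 3 untreated libraries only that of sow 17, at 156 CPM, had Y-linked counts that went with its label. In castrated boars it stood at 318, 449 and 236 CPM with Sustanon, at 119.8 and 160.3 CPM with Myodin, and at 127, 232 and 192 CPM without treatment. The castrated boars kept the same order for Sustanon over untreated pigs, while the 2 Myodin animals fell in the untreated range or just under it.

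Over pigs without testes, FKBP5 was 401 ± 119 CPM with Sustanon (n = 6), 97.5 ± 50.5 CPM with Myodin (n = 5) and 189.5 ± 71.2 CPM untreated (n = 6). All 6 Sustanon pigs lay above all 5 Myodin pigs, with no overlap. The share of all tested genes that separate these groups as fully is not given here. The same holds for the other statements of overlap between groups. The fold change of Sustanon over Myodin was 4.13 (95% interval 2.58 to 6.60; log2 2.05, SE 0.33), with an adjusted p of 0.00346 by edgeR's quasi-likelihood test. FKBP5 was the only 1 of the 6 tested genes called in this comparison, in which 2.43% of all 8754 tested genes were called, and it ranked 6th by p. The call held in all 11 fits that left out a pig, where the log2 fold change ran from 1.83 to 2.30. The preparations differed in dose, in stock strength and in ester, so the contrast is one of the 2 treatments as given.

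Against untreated pigs, FKBP5 rose with Sustanon in pigs without testes by a log2 fold change of 1.09 (SE 0.30), a fold of 2.13 (95% interval 1.39 to 3.26; edgeR, adjusted p = 0.0328). Of the 6 Sustanon pigs, 5 were above every untreated pig without testes. This call lay close to the threshold: it passed in 5 of the 12 fits that left out a pig, and the adjusted p reached 0.0857 without Sustanon sow 5. Without the 3 libraries whose Y-linked counts went against their labels, the log2 fold change was 1.23 and the adjusted p 0.106. With Myodin the log2 fold change was -0.96 (95% interval -1.61 to -0.30, adjusted p = 0.274 by edgeR), with 4 of 5 Myodin pigs below every untreated pig without testes. Without the 3 doubted libraries it was -0.81 (adjusted p = 0.834). The Sustanon and Myodin values share their untreated pigs.

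In uncastrated boars FKBP5 was at 319 and 264 CPM in the 2 untreated animals, at 257, 432 and 362 CPM with Myodin, and at 513 and 414 CPM with Sustanon. Hence all 3 Myodin boars with testes were above all 5 Myodin pigs without testes. In these boars the log2 fold change was 0.67 (95% interval -0.39 to 1.73) for Sustanon and 0.26 (-0.70 to 1.23) for Myodin. The difference between the Myodin effect with and without testes was 1.22 on the log2 scale (95% interval 0.04 to 2.40, adjusted p = 0.396 by edgeR) and was not called. That for Sustanon was -0.42 (adjusted p = 0.913). These differences were 1.08 and -0.56 without the 3 doubted libraries, with adjusted p of 0.589 and 0.902. None of the 6 genes was called in either of these tests of the difference, in which 0.0914% (Myodin) and 0.0457% (Sustanon) of tested genes were called. Over all 8 pigs a group, sex status ignored, the fold of FKBP5 with Sustanon against untreated was 1.96 (log2 0.97, SE 0.37), with an adjusted p of 0.129 by edgeR, and 0.339 without the 3 doubted libraries. With sex status as an additive term in the same comparison, the adjusted p was 0.0384.

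**Figure D2:**
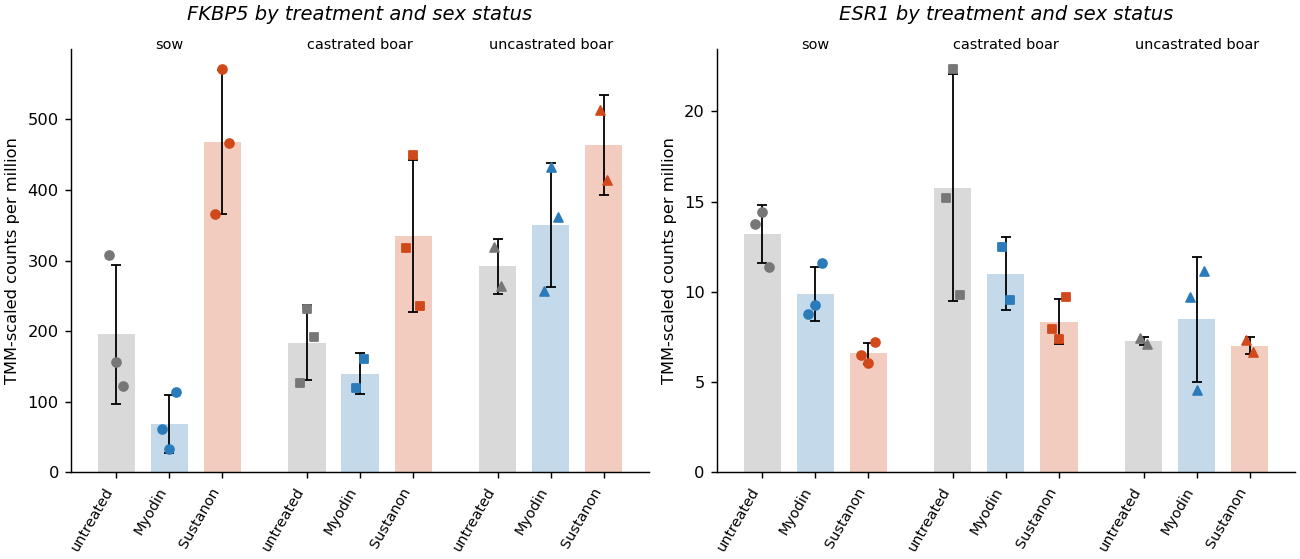
CPM of FKBP5 (left) and ESR1 (right) by treatment within sows, castrated boars and uncastrated boars; points are pigs, bars are means and whiskers ± 1 SD (n = 2 or 3). In sows and castrated boars FKBP5 was highest and ESR1 lowest with Sustanon, and in uncastrated boars the ESR1 means were within 7.02 to 8.47 CPM.

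ESR1 fell with Sustanon in pigs without testes. The gene lies on chr1:14217032-14604906 (Sscrofa11.1) and no other RefSeq gene overlaps it. In sows it was at 6.48, 6.06 and 7.24 CPM with Sustanon, at 8.79, 9.26 and 11.6 CPM with Myodin, and at 13.8, 14.5 and 11.4 CPM untreated. Every Sustanon sow was below every Myodin and every untreated sow, while Myodin sow 12 reached above the library labelled untreated sow 18. In castrated boars it was at 7.92, 7.37 and 9.74 CPM with Sustanon, at 12.5 and 9.57 CPM with Myodin, and at 15.2, 22.3 and 9.81 CPM untreated. Here too every Sustanon animal was below every untreated one, although only just for Sustanon castrated boar 3 and the library labelled untreated castrated boar 15. These CPM stand for 61 to 204 counts a library, against 334 to 5930 for FKBP5 in the same pigs.

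Over pigs without testes ESR1 was 7.47 ± 1.295 CPM with Sustanon (n = 6) and 14.5 ± 4.33 CPM untreated (n = 6), without overlap. It fell to a fold of 0.521 (95% interval 0.393 to 0.691; log2 -0.94, SE 0.20, adjusted p = 0.00582 by edgeR). ESR1 and FKBP5 were the 2 of 6 genes called in this comparison, against 5.43% of all 8754 tested genes. ESR1 stayed called in all 12 fits that left out a pig, and without the 3 doubted libraries its log2 fold change was -1.20 (adjusted p = 0.0126). Without these 3 libraries 124 genes of the table were called, against 475 with them. With Myodin ESR1 was 10.3 ± 1.599 CPM (n = 5), a log2 fold change of -0.48 (95% interval -0.90 to -0.06; adjusted p = 0.429 by edgeR). Without the 3 doubted libraries it was -0.74 (adjusted p = 0.618). That comparison called 0.0914% of tested genes and none of the 6. Between Sustanon and Myodin the ESR1 difference was -0.46 (95% interval -0.89 to -0.03; adjusted p = 0.218).

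In uncastrated boars the ESR1 means were 7.28 CPM untreated, 7.02 CPM with Sustanon and 8.47 CPM with Myodin. The 2 untreated boars were at 7.45 and 7.12 CPM, the Sustanon boars at 7.34 and 6.69 CPM, and the Myodin boars at 9.70, 4.59 and 11.13 CPM. The 2 untreated uncastrated boars were thus below all 6 untreated pigs without testes, at a fold of 0.505 (95% interval 0.332 to 0.769; log2 -0.99, SE 0.29). By edgeR this difference had an adjusted p of 0.1004 and was not called, whereas DESeq2 called it among 253 genes of the table, against 125 by edgeR. Without the 3 doubted libraries the log2 difference was -1.24 (adjusted p = 0.0826 by edgeR). The background there was 1.43% of tested genes by edgeR. The 125 genes behind it were 71 without untreated castrated boar 15 and 34 without the 3 doubted libraries. The Sustanon effect on ESR1 in uncastrated boars was -0.05 on the log2 scale (95% interval -0.77 to 0.66). The difference of the Sustanon effect with and without testes was 0.89 (95% interval 0.06 to 1.71, adjusted p = 0.683 by edgeR), and 1.14 without the 3 doubted libraries (adjusted p = 0.604).

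Over all 8 pigs a group, ESR1 was 7.36 ± 1.13 CPM with Sustanon, 9.64 ± 2.40 CPM with Myodin and 12.7 ± 4.95 CPM untreated. It was the only 1 of 6 genes called in Sustanon against untreated pigs (log2 -0.77, SE 0.20, adjusted p = 0.0265 by edgeR), where 5.07% of 8279 tested genes were called. This call passed in 10 of 16 fits that left out a pig. It was lost without Sustanon sow 5, Sustanon uncastrated boars 19 or 20, untreated castrated boars 13 or 14, or untreated sow 17, with adjusted p up to 0.0671. Without the 3 doubted libraries the log2 fold change was -0.84 and the adjusted p 0.117. In that fit no gene of the table was called. Sustanon against Myodin over all pigs called 0.664% of genes and none of the 6, with FKBP5 at a log2 fold change of 1.14 (adjusted p = 0.111). FKBP5 was called there with sex status as an additive term (1.54, adjusted p = 0.0110), with DESeq2 (adjusted p = 0.0465) and with limma (adjusted p = 0.0458). Over the whole table these fits called 390, 276 and 53 genes, against 55 by the edgeR fit without that term.

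**Figure D3:**
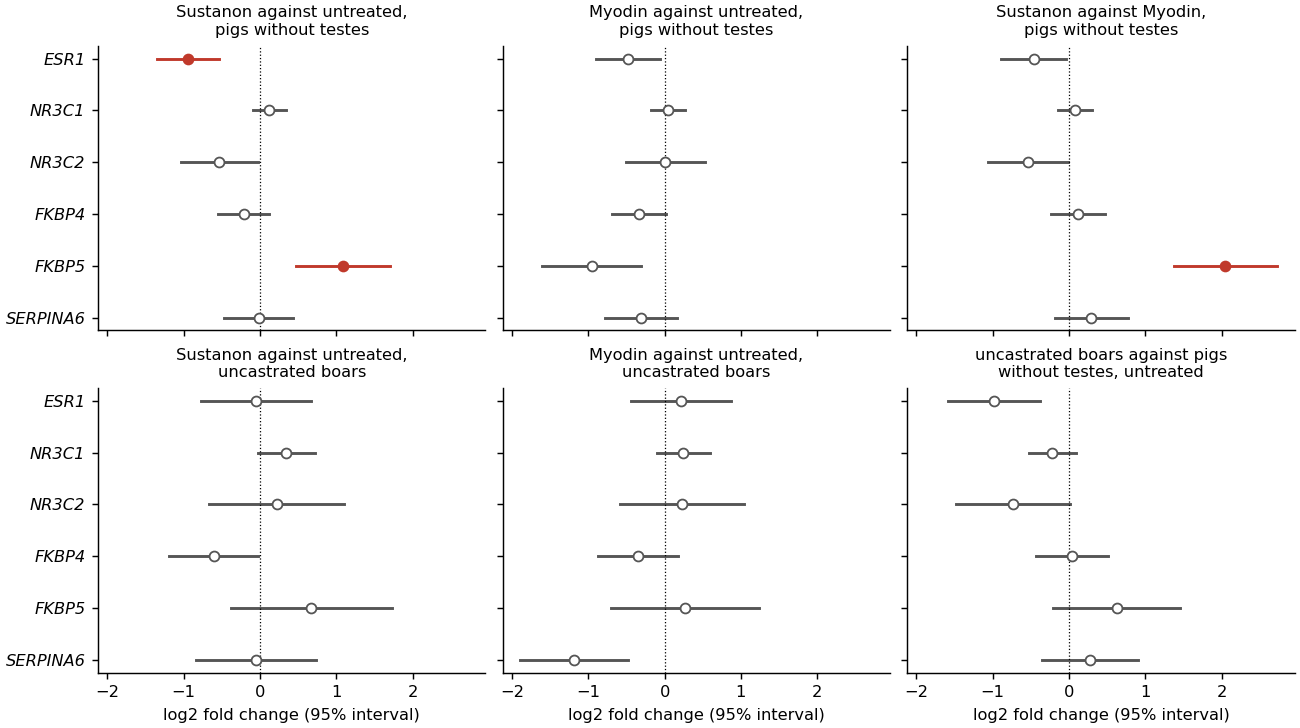
Log2 fold changes with 95% intervals of the 6 tested genes in 6 comparisons, from edgeR; filled red points had an adjusted p under 0.05. Called were ESR1 (-0.94) and FKBP5 (1.09) for Sustanon against untreated pigs without testes, and FKBP5 (2.05) for Sustanon against Myodin in pigs without testes.

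Neither receptor of the adrenal hormones was called in any of the 12 comparisons. NR3C1, through which cortisol acts in hepatocytes (chr2:144822937-144956451, Sscrofa11.1, overlapped by LOC110259145), was 61.7 ± 7.49 CPM with Sustanon, 58.4 ± 5.601 CPM with Myodin and 54.9 ± 7.28 CPM untreated (n = 8 each). Its log2 fold change with Sustanon was 0.18 (95% interval -0.0034 to 0.37; adjusted p = 0.267 by edgeR), and with Myodin 0.08 (-0.11 to 0.27). These were 0.19 and 0.09 without the 3 doubted libraries. Among the tested genes its intervals were the narrowest, and over all pigs the interval for Sustanon reached a fold of 1.29. In uncastrated boars it reached a fold of 1.65. NR3C2, the mineralocorticoid receptor (chr8:80303172-80669050, Sscrofa11.1, overlapped by LOC110261980), had group means of 2.93 with Sustanon, 3.79 with Myodin and 3.83 CPM untreated. In pigs without testes its log2 fold change with Sustanon was -0.54 (95% interval -1.04 to -0.03; adjusted p = 0.226; without the 3 doubted libraries -0.66, adjusted p = 0.282), and 3 of 6 Sustanon pigs were below every untreated one.

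FKBP4, the partner that competes with FKBP5 in the receptor complex (chr5:67314010-67321628, Sscrofa11.1), was not called in any comparison. It was 352 ± 79.8 CPM with Sustanon, 346 ± 74.8 CPM with Myodin and 437 ± 52.2 CPM untreated (n = 8 each). The lowest, median and highest values were 289, 322 and 526 CPM with Sustanon, 213, 354 and 420.5 CPM with Myodin, and 351, 448 and 511 CPM untreated. Of 8 Sustanon pigs 5 were below every untreated pig, and of 8 Myodin pigs 4 were. The log2 fold changes were -0.30 (95% interval -0.58 to -0.017, adjusted p = 0.222) with Sustanon and -0.34 (-0.63 to -0.06, adjusted p = 0.576) with Myodin by edgeR. They were -0.34 and -0.38 without the 3 doubted libraries, where neither comparison called any gene of the table. Sustanon castrated boar 1, at 526 CPM, was the highest of all 24 pigs, and without it the Sustanon difference was -0.41 with an adjusted p of 0.0483.

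The quotient of FKBP5 over FKBP4 in TPM brings these genes together. In the untreated group it ran from 0.152 to 0.441 with a median of 0.235. With Sustanon it ran from 0.310 to 0.939 with a median of 0.686. With Myodin the 5 pigs without testes lay between 0.0494 and 0.199, and the 3 uncastrated boars between 0.321 and 0.828. All 6 Sustanon pigs without testes thus lay above all 5 Myodin pigs of that kind. In every pig FKBP4 was the more abundant transcript of the pair. The quotient is a description and was not tested.

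**Figure D4:**
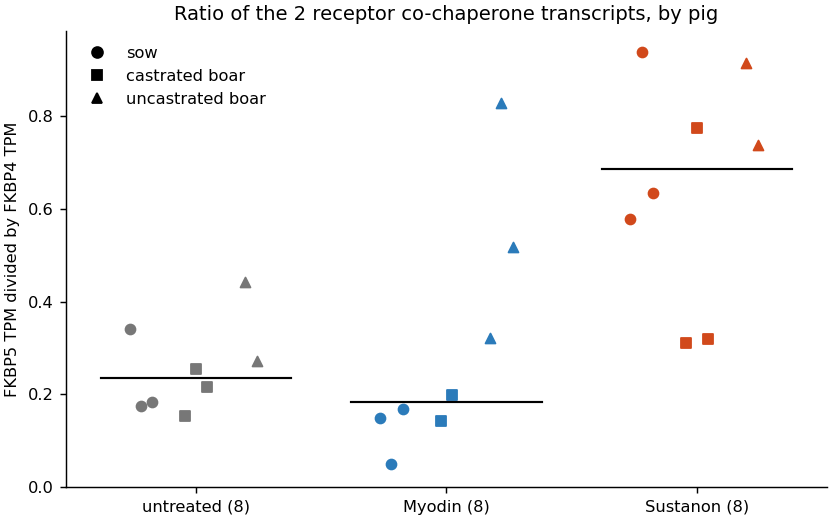
FKBP5 TPM divided by FKBP4 TPM in each of 24 pigs; symbols mark sex status and bars are medians of 8 pigs. The medians were 0.235 untreated, 0.184 with Myodin and 0.686 with Sustanon, and the 3 Myodin boars with testes lay above the 5 Myodin pigs without.

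SERPINA6, the cortisol carrier (chr7:115535552-115554536, Sscrofa11.1), was not called in any comparison. Its lowest, median and highest values were 119, 211 and 295 CPM with Sustanon, 80.9, 139.8 and 234 CPM with Myodin, and 153, 225 and 249 CPM untreated. Of 8 Myodin pigs 5 were below every untreated pig. The log2 fold change with Myodin was -0.59 (95% interval -1.01 to -0.18, adjusted p = 0.4927 by edgeR) and with Sustanon -0.02 (95% interval -0.44 to 0.39). Without the 3 doubted libraries these were -0.75 and -0.18. In uncastrated boars, SERPINA6 was at 140.4, 103 and 80.9 CPM with Myodin and at 242 and 249 CPM untreated, a fold of 0.439 (95% interval 0.2697 to 0.716, adjusted p = 0.272 by edgeR). In pigs without testes the Myodin fold was 0.807 (95% interval 0.580 to 1.12; log2 -0.31), and the log2 value was -0.50 without the 3 doubted libraries. The difference of the Myodin effect with and without testes was -0.88 (SE 0.41, adjusted p = 0.400 by edgeR), and -0.68 without the 3 doubted libraries.

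Some comparisons called no gene at all. Myodin against untreated pigs called 0% of 8279 genes by edgeR, with 597 genes at an unadjusted p under 0.05, whereas DESeq2 called 1 gene and limma 0. In uncastrated boars Sustanon called 0% of 8754 genes by edgeR (931 at an unadjusted p under 0.05, 45 by DESeq2 and 11 by limma). Myodin there called 0% (797 at an unadjusted p under 0.05, 44 by DESeq2 and 3 by limma). Sows against castrated boars, with treatment as a covariate, called 0% of 8149 genes by edgeR (915 at an unadjusted p under 0.05, 20 by DESeq2 and 0 by limma). In that comparison FKBP5 differed by -0.10 (95% interval -0.67 to 0.48) and ESR1 by -0.26 (-0.55 to 0.04). The 3 doubted libraries are all in that comparison. Without them the differences were -0.20 and -0.28, neither was called, and 17 genes of the table were.

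Genes that glucocorticoids are known to induce in liver were read beside FKBP5. All 15 of the listed genes in the tables were tested. The list was longer, and targets such as PER1, PCK1, DUSP1 and IGFBP1 were not among those tested. In pigs without testes, 4 rose in Sustanon over Myodin and none fell, 14 of 15 had a positive log2 fold change, and the list's median was 0.43 against -0.01 over all genes tested, of which 2.43% were called. ZBTB16, a zinc finger transcription factor, differed most with 2.35 (SE 0.46, adjusted p = 0.0113). The others called were FOXO3, a forkhead factor of fasting (0.94, adjusted p = 0.00511), TSC22D3, the glucocorticoid-induced leucine zipper (1.26, adjusted p = 0.0474), and NFKBIA, the inhibitor of NF-kappa-B (0.59, adjusted p = 0.0499), all by edgeR. Without untreated castrated boar 15, or without the 3 doubted libraries, none of which belongs to the groups compared, 2 of these stayed called, FOXO3 and ZBTB16. Over all pigs, where 0.664% of all genes were called, only FOXO3 of the list was called (0.75, adjusted p = 0.0321 by edgeR). There ZBTB16 was at 1.46 (adjusted p = 0.0854), TSC22D3 at 0.73 (adjusted p = 0.21) and NFKBIA at 0.19 (adjusted p = 0.596).

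Against untreated pigs without testes no gene of the list was called with either treatment, where 5.43% (Sustanon) and 0.0914% (Myodin) of all genes were called, so that a count of 0 of 15 says little about the list. With Myodin 12 of 15 log2 fold changes were negative (median -0.48). ZBTB16 was at -1.53 (SE 0.45, adjusted p = 0.191) and TAT, the tyrosine aminotransferase, at -1.31 (SE 0.35, adjusted p = 0.150). With Sustanon 9 of 15 were positive (median 0.16), and none was called without the 3 doubted libraries either. ZBTB16 was at 0.82 (SE 0.41, adjusted p = 0.281) and TAT at -0.45 (SE 0.33, adjusted p = 0.511). Over all pigs, TDO2, the tryptophan dioxygenase, was the 1 gene of 15 that rose with Sustanon (1.01, SE 0.29, adjusted p = 0.0385), a share near the 5.07% of all genes. It was not called without untreated castrated boar 15.

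**Figure D5:**
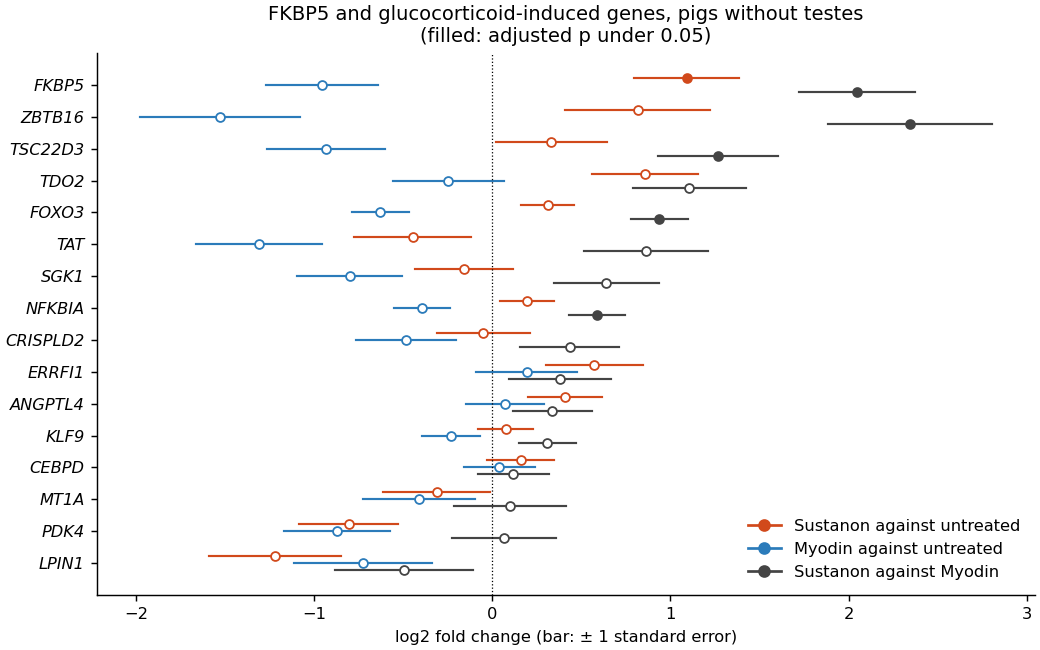
Log2 fold changes ± 1 standard error of FKBP5 and the 15 tested glucocorticoid-induced genes in pigs without testes, for 3 comparisons that share animals; filled points had an adjusted p under 0.05. ZBTB16 and FKBP5 had the largest Sustanon over Myodin differences, 2.35 and 2.05.

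Other genes of the HSP90 complex were also followed. Of 16 chaperones and co-chaperones tested, from a longer list, 1 fell with Sustanon over all pigs: HSP90AB1, the constitutive HSP90 itself (-0.48, SE 0.13, adjusted p = 0.0279 by edgeR). That is a share near the 5.07% of all genes called there. HSP90AB1 was not called without untreated castrated boar 15. The list's median was -0.08 against -0.01 over all genes, and 14 of 16 values were negative, as were 9 of 16 in pigs without testes. HSP90AB1 was also called in pigs without testes (-0.47, adjusted p = 0.0476 by edgeR), where 5.43% of all genes were called. Among 14 tested coactivators and corepressors, 2 rose with Sustanon over all pigs, where 5.07% of all genes were called. NR0B2, the small heterodimer partner that represses other nuclear receptors, had a log2 fold change of 0.99 (SE 0.22, adjusted p = 0.0140), and NCOA2, a steroid receptor coactivator, one of 0.64 (SE 0.18, adjusted p = 0.0341). Both stayed called without untreated castrated boar 15. In pigs without testes NR0B2 was called (1.01, adjusted p = 0.0272), while NCOA2 was at 0.37 (adjusted p = 0.212). Without all 3 doubted libraries no gene of the table was called over all pigs. In pigs without testes 124 genes of the table were called without these libraries, against 475 with them. The values of HSP90AB1 and NR0B2 in pigs without testes are not given here without these libraries.

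Among the other steroid receptors, none of 6 tested was called over all pigs with Sustanon, where 5.07% of all genes were. ESRRA, an orphan receptor related to ESR1, rose with Sustanon in pigs without testes, where 5.43% of all genes were called (0.42, SE 0.12, adjusted p = 0.0331), but not without the 3 doubted libraries. ESR2, the second estrogen receptor, was low and had a log2 fold change of 0.85 with Sustanon over all pigs (SE 0.28, adjusted p = 0.0748).

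Of the estrogen-induced liver genes only 2 could be tested. F12, coagulation factor XII, rose with Sustanon in pigs without testes (0.59, SE 0.13, adjusted p = 0.00789 by edgeR; 5.43% of all genes were called there), also without the 3 doubted libraries. SERPINA7, the thyroxine carrier, was at 0.25 (SE 0.19, adjusted p = 0.542). Of 9 tested genes that convert glucocorticoids and androgens, none was called for Sustanon against untreated pigs. There 5.07% of all genes were called over all pigs and 5.43% in pigs without testes. HSD17B6 had 0.60 over all pigs (SE 0.18, adjusted p = 0.0514), and HSD11B1, which regenerates cortisol in liver, 0.19 (SE 0.09, adjusted p = 0.221). SULT1E1, the estrogen sulfotransferase, was higher in Sustanon than in Myodin pigs without testes (1.81, SE 0.42, adjusted p = 0.0249), where 2.43% of all genes were called. Among 7 clade A serpin entries, 2 of which carry the symbol SERPINA1, SERPINA11 fell with Sustanon over all pigs (-0.60, SE 0.15, adjusted p = 0.0261), where 5.07% of all genes were called. In pigs without testes it was called too (-0.63, adjusted p = 0.0328), but not without the 3 doubted libraries.

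Markers of other cell types were read beside these results. For Sustanon against Myodin in pigs without testes, none of the tested markers of hepatocytes, bile duct, leukocytes, stroma, endothelium or red blood cells was called. All 6 leukocyte and Kupffer cell markers had a negative log2 fold change there (median -0.24) and all 3 stromal markers a positive one (median 0.82). Summed stromal markers were 164 to 297 CPM with Sustanon and 69.3 to 240 CPM with Myodin, and 73.2 to 210.4 CPM in untreated pigs without testes. Summed leukocyte markers were 595 to 779, 632 to 965 and 587 to 856 CPM in the same order, and against untreated pigs 1 of the 6 was called lower with Sustanon (5.43% of all genes were called there). This was MS4A1, a B cell gene with 7 to 52 counts a library (-1.16, adjusted p = 0.0233 by edgeR). Its value without the 3 doubted libraries is not given here. Summed hepatocyte markers were 125850 to 201150, 100370 to 172730 and 105790 to 193860 CPM. Summed endothelial markers were 91.7 to 172, 142 to 226 and 107 to 227 CPM, and 3 of 4 had a negative log2 fold change in Sustanon against Myodin (median of the 4 -0.41). Summed red blood cell markers were 9.33 to 40.8, 9.85 to 44.9 and 13.2 to 52.3 CPM, and all 3 had a negative log2 fold change in Sustanon against untreated pigs (median -0.81), with none called. The part of these differences in the FKBP5 and ESR1 results was not tested.

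The genes whose levels ran most like each member across the 24 libraries, by Pearson correlation of log2 CPM over 7540 tested genes with a symbol, are given as a description, since the libraries share treatment, sex status and housing. For FKBP5 they were ZBTB16 (r = 0.89, Spearman rho 0.85), CDO1, a cysteine dioxygenase (r = 0.89, rho 0.89), and MTSS1 (r = 0.89, rho 0.90). For FKBP4 they were the chaperonin subunits CCT3 (r = 0.90, rho 0.91) and TCP1 (r = 0.89, rho 0.89) and the exportin XPO5 (r = 0.88, rho 0.86). For ESR1 they were TRAPPC3 (r = 0.83), KCNN2 (r = 0.83) and ACP6 (r = 0.82). For NR3C1 they were QKI (r = 0.83), TEAD1 (r = 0.79) and STYX (r = 0.79), and for NR3C2 SMIM7 (r = 0.82), ALDH7A1 (r = 0.79) and REPS2 (r = 0.79). SERPINA6 had the weakest likenesses, with MAPK13 (r = 0.71), FOSB (r = 0.63) and PCNX3 (r = 0.60).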

How the data were processed

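Liver poly-A RNA (stranded TruSeq, paired-end) was sequenced for 24 pigs. The authors trimmed reads with Skewer, mapped them with STAR 2.5 to Sscrofa11.1 and used DESeq2; the counting tool is not given in the sources used here. The deposited tables hold raw counts and log2(TPM + 1) values, which the authors made from the same reads, for 13463 genes. Back-transformed TPM summed to 989763 to 994408 per library. Members were matched by symbol; 3779 rows had no symbol, and 359 of these took one from the reference table.

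Counts were scaled with TMM factors, filtered with filterByExpr and tested with edgeR 4.0.16 (glmQLFit, glmQLFTest, R 4.3.3) with Benjamini-Hochberg adjustment over all genes tested; called means an adjusted p under 0.05. The 3 treatment groups shared one fit, and so did the 6 groups of treatment by testes, whose interaction gave the differences between effects. Log2 CPM used a prior count of 2. The standard error was derived as the absolute log2 fold change divided by the square root of the quasi-likelihood F statistic. The 95% intervals are the log2 fold change ± this standard error times the t quantile at the fit's degrees of freedom. The code was tested on simulated data. Alternatives were RLE scaling, no filter, DESeq2 1.42.0, limma 3.58.1 on the deposited log2 values, an additive sex status term, the 2 groups alone, a fold threshold of 1 on the log2 scale, and leaving out pigs. Named genes were all members, the 3 genes most like each, and in each pathway list the genes called for Sustanon against untreated pigs, or else the gene with the largest change. Genes named beyond that rule were chosen after their values were seen. The members, lists and tests were chosen with earlier results of these data known.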

Additional observations from a re-analysis of the deposited data

How the results depend on the processing

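The numbers of the 6 tested genes called moved as follows. For Sustanon against untreated pigs (1 gene, ESR1), the number was 0 with a log2 fold change of at least 1 required, 0 without untreated castrated boar 15 and sows 16 and 18, 2 (ESR1 and FKBP5) with sex status as an additive term and 2 with these groups alone, and it ran from 0 to 2 when 1 pig was left out. For Sustanon against Myodin (0 genes), it was 1 (FKBP5) with DESeq2, 1 with limma on the deposited values and 1 with the additive term, and 0 to 1 with a pig left out. For Sustanon against untreated pigs without testes (2 genes), it was 1 (ESR1) without castrated boar 15 and 1 without all 3 doubted libraries, and 1 to 2 with a pig left out; FKBP5 was lost without Sustanon castrated boar 2, Sustanon sows 5 or 6, untreated castrated boars 13 or 15, or untreated sows 17 or 18. For untreated uncastrated boars against pigs without testes (0 genes), DESeq2 gave 1 (ESR1). The cause of these shifts was not tested. Over all genes, Sustanon against Myodin called 55 genes with edgeR, 276 with DESeq2, 53 with limma and 390 with the additive term. It called 36 with no filter and 9 with these groups alone. Sustanon against untreated pigs called 420 with edgeR, 637 with DESeq2, 598 with the additive term and 557 with these groups alone. This comparison called fewer with limma (330), with no filter (364) and without untreated castrated boar 15 (272). Where FKBP5 was gained there, with the additive term or these groups alone, calls over the whole table rose too.

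No called log2 fold change changed sign in any alternative. Of all values, 11 of 468 changed sign in alternatives other than leaving out 1 pig. For NR3C2 with Myodin these were 0.0686 without castrated boar 15 and 0.0052 with the additive term over all pigs, and, without testes, -0.0022 with RLE, -0.0027 with DESeq2, -0.0033 with limma and -0.12 without the 3 libraries. For ESR1 with Myodin in uncastrated boars, limma gave -0.0039. For the SERPINA6 difference of Sustanon effects they were 0.0040 without castrated boar 15 and 0.16 without the 3 libraries. Without the 3 libraries FKBP4 was -0.016 in untreated uncastrated boars against pigs without testes, and 0.039 for the difference of Myodin effects. Leaving out 1 pig, signs changed in 48 of 888 values. The ranges for SERPINA6 with Sustanon were -0.12 to 0.061 over all pigs, -0.17 to 0.094 without testes, -0.32 to 0.17 in uncastrated boars and -0.30 to 0.19 for the difference of effects. For NR3C2 with Myodin they were -0.13 to 0.069 over all pigs, -0.095 to 0.098 without testes, -0.17 to 0.81 in uncastrated boars and -0.18 to 0.81 for the difference of effects, and for NR3C2 with Sustanon in uncastrated boars -0.18 to 0.81. For FKBP4 they were -0.076 to 0.091 for Sustanon against Myodin, -0.014 to 0.20 for the same without testes, -0.21 to 0.24 for untreated uncastrated boars against pigs without testes and -0.20 to 0.23 for the difference of Myodin effects. For ESR1 in uncastrated boars they were -0.12 to 0.012 with Sustanon and -0.028 to 0.49 with Myodin. Sows against castrated boars gave -0.26 to 0.045 for FKBP5 and -0.073 to 0.0060 for NR3C1.

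Levels per treatment moved by less than 1 SD on CPM from total counts. The list counts without doubted libraries were added after seeing the data. No paired analysis was possible because each pig has its own number. Leaving out a pig of a group of 2 leaves a lone pig, assumed to vary like the other groups. Low counts kept SRD5A2 from being tested, and NR3C2 rested on 17 to 64 counts a library.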

Other observations

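Of 28 tested neighbours of the genes, from RefSeq positions, 2 were called with Sustanon over all pigs, a share near the 5.07% of all genes. The 5 values below were chosen after they were seen as those with an adjusted p under 0.08 next to a gene that was tested. ARMC12, 32.8 kb after FKBP5, had a log2 fold change of 1.80 with Sustanon over all pigs (adjusted p = 0.0789 by edgeR), whereas RPL10A and TEAD3 before FKBP5 and SRPK1 after it were at 0.15, 0.19 and 0.05. DDX11, 37.8 kb after FKBP4, had 0.65 (adjusted p = 0.0163), while FKBP4 itself was at -0.30. SERPINA11, 111.5 kb after SERPINA6, had -0.60 (adjusted p = 0.0261), while DDX24, 188.2 kb before SERPINA6, had -0.25 (adjusted p = 0.0645) and SERPINA6 itself was at -0.02. PRELID2, 2145 kb after NR3C1, had -0.90 (adjusted p = 0.0748), while NR3C1 was at 0.18. The tested neighbours of ESR1, which were FBXO5, MYCT1, CCDC170 and ARMT1, were at -0.16, -0.12, -0.02 and 0.21.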
